A study of Mus musculus with 9 samples.

Results

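Annexins are calcium-dependent phospholipid-binding proteins, and their transcripts were measured in cells sorted from mammary glands as non-epithelial, comparing caloric restriction (CR) with feeding ad libitum. The family was taken as the rows of the expression table for Anxa1 to Anxa7, for Anxa11 and for S100a10, the small protein that pairs with annexin A2. Of these 9 listed genes, 8 had values and all 8 passed the filter on low values, among 11063 genes in all and 6815 past the filter. Anxa11 was not analysed here. Members were taken by gene name, in a list drawn up, like the gene lists used further on, with earlier results of these data known.

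The comparison was between 5 CR mice and 4 ad libitum-fed mice, all female and of the FVB/N strain, from 6 weeks of age. CR lasted 8 weeks, and the submitters' notes put the ration at 65% of what the ad libitum-fed mice had eaten the day before, while the paper states a different share. From the #4 glands of each mouse, 15000 Lin-, CD49f-negative and CD24-negative cells gave 1 library, so that each value stands for 1 animal. The libraries held 785301 to 1485963 recovered counts (median 974109) in CR mice and 382877 to 817030 (median 480190) in ad libitum-fed mice, so that depth moved with diet. The limit that a count of 0 leaves (3 counts) equals 1.55 to 2.90 normalized counts in CR libraries and 2.69 to 5.85 in ad libitum libraries, for counting error only.

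Markers of several cell types were measured in the sorted cells, and some of them differed between the diets. Among all tested genes, 7.98% were higher in CR mice and 9.14% lower, by the test described below. Fibroblast genes were the most abundant of the marker lists, although the magnetic step before the sort is described as removing endothelial cells and part of the fibroblasts and blood cells. The summed level of 16 fibroblast genes was 19563 to 25303 normalized counts in CR libraries and 11857 to 22754 in ad libitum libraries, which overlapped, and Gsn was the highest of them. All 12 tested T cell markers fell in CR mice, with sums of 104 to 224 in CR libraries against 1650 to 2827 in ad libitum libraries, led by Lat. All 4 tested mast cell genes fell as well (sums of 29.1 to 133 in CR libraries against 345 to 630 in ad libitum libraries, led by Mcpt4), and 2 of 3 dendritic cell genes fell (60.9 to 377 in CR libraries against 405 to 653 in ad libitum libraries, led by Cd74). Of 5 tested pericyte and smooth muscle genes, 2 were higher in CR mice (Tagln and Pdgfrb) and the other 3, Des among them, did not pass. Their sums, led by Des, were 297 to 778 in CR libraries and 246 to 306 in ad libitum libraries. These overlapped and were highest in CR mice 1 and 2. The part of pericyte and smooth muscle genes in the annexin results was not tested. Of 4 tested macrophage markers, Ctss and Tyrobp fell and the others, with the most abundant, Cd14, among them, did not pass the test, with sums over 10 genes of 56.6 to 343 in CR libraries against 167 to 413 in ad libitum libraries. The epithelial genes measured (Krt18, Krt19 and Cdh1) summed to 7.73 to 27.4 in CR libraries and 15.3 to 25.9 in ad libitum libraries, and S100a8 and S100a9, which mark neutrophils, were not analysed here. Ad libitum mouse 4 had the lowest fibroblast sum of the 9 libraries (11857) and the highest T cell sum (2827). In a bulk sample, fewer cells of a type and less RNA per cell cannot be told apart.

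Each annexin carries a conserved core that docks on acidic phospholipids, above all phosphatidylserine, when calcium rises, and a variable amino-terminal tail that sets its partners. Through this switch annexins organise membrane domains, tie membranes to actin, take part in exocytosis and endocytosis, and seal plasma membrane wounds. Annexin A1 is also secreted and dampens inflammation through formyl peptide receptors, annexin A2 with S100a10 gathers plasminogen and its activator on the cell surface, and annexin A5 is the standard probe of exposed phosphatidylserine. In the stroma these proteins are found in fibroblasts, macrophages, endothelial cells and lymphocytes.

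Under CR, 5 members rose and 1 fell. Anxa1, Anxa2, Anxa3, Anxa4 and Anxa5 rose by 1.66 to 3.40-fold, Anxa6 fell, and Anxa7 and S100a10 did not pass the test. The test was limma on log2(normalized count + 1) over the 6815 genes, with Benjamini-Hochberg adjustment and a limit of 0.05. By this rule 7.98% of all tested genes were higher in CR mice and 9.14% were lower, against 5 and 1 of the 8 members. The counts of members were the same with a fold of at least 1.5 required as well, where 7.81% of all genes were higher and 8.85% lower. They were also the same with a stricter filter of 30 normalized counts in at least 4 libraries. It left 3692 more abundant genes, of which 494 were higher and 432 lower, a larger share than among the 6815. For the same 5 members, every CR value lay above every ad libitum value, as it did for 7.29% of all tested genes, while 9.63% had every CR value below every ad libitum value, and no member did. The median log2 fold change of the 7 annexins was 0.81, and that of all tested genes was 0.07.

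**Figure D1:**
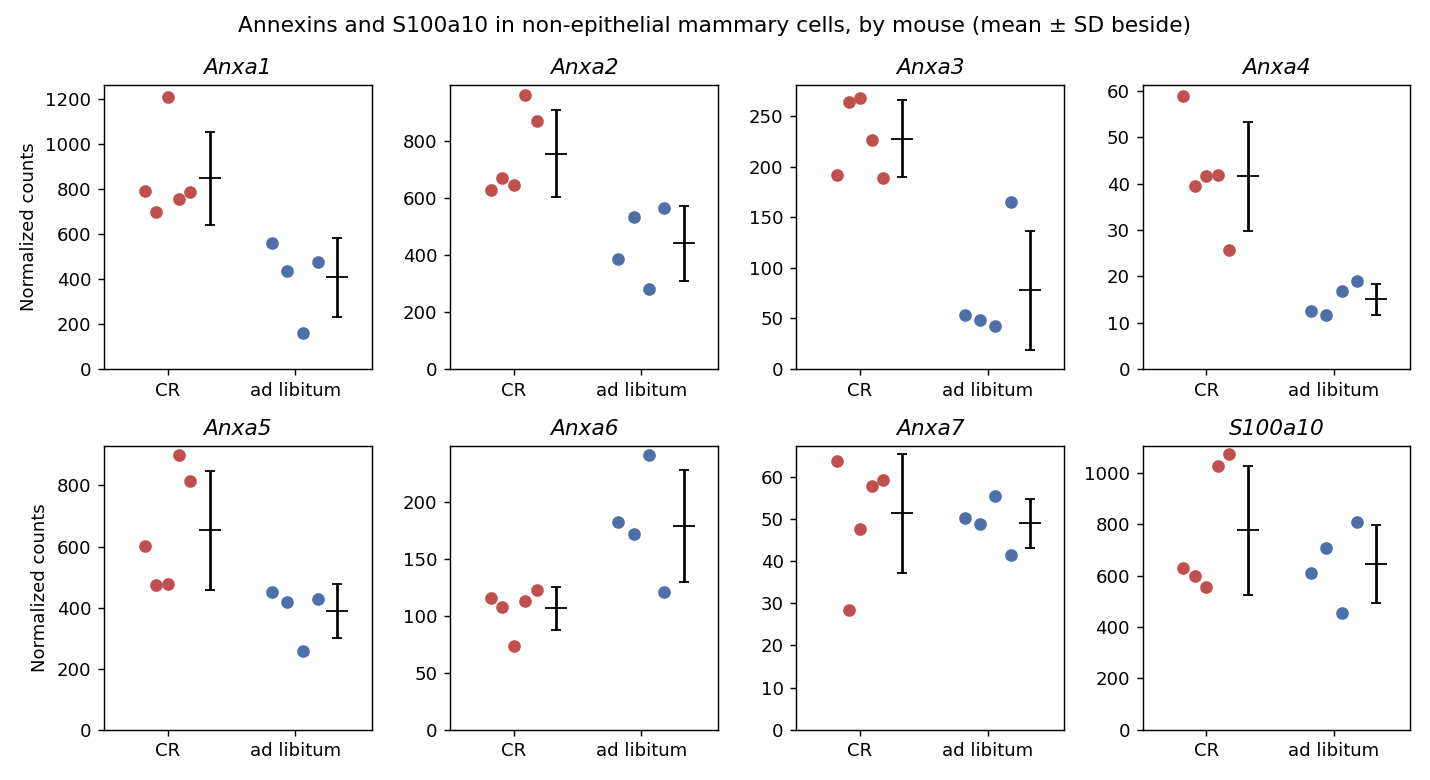
Normalized counts of the 8 members (y axes, from 0) in each of 5 CR mice (red) and 4 ad libitum-fed mice (blue), with the mean ± SD beside the points. The groups do not overlap for Anxa1 to Anxa5, while those of Anxa6, Anxa7 and S100a10 do; of all tested genes, 7.29% have every CR value above every ad libitum value.

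Anxa1 encodes the glucocorticoid-regulated annexin that restrains phospholipase A2 and acts on formyl peptide receptors. Its mean was the highest of the annexins in CR mice, although Anxa2 and Anxa5 were above it in CR mice 4 and 5. Anxa1 had 790, 696, 1208, 752 and 785 normalized counts in CR mice 1 to 5, against 559, 433, 157 and 476 in ad libitum-fed mice 2 to 5. CR mouse 3 stood above the other CR mice and ad libitum mouse 4 below the other ad libitum-fed mice, with no overlap between the diets. The means were 846 ± 206 (SD, n = 5) in CR mice and 406 ± 174 (SD, n = 4) in ad libitum-fed mice, so that the log2 fold change came to 1.17 with a standard error of 0.28 (adjusted p = 0.00744, limma). Without ad libitum mouse 4 the log2 fold change was 0.77 and still passed the test (adjusted p = 0.0103, limma). On GRCm38, Anxa1 occupies 20373434 to 20390671 of chromosome 19 on the minus strand. A long non-coding gene of the opposite strand, 1500015L24Rik, reaches into the 1000 bases at its 3' end in the GENCODE annotation.

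Anxa2 encodes the heavy chain of the complex with S100a10. It had 629, 669, 645, 962 and 872 normalized counts in CR mice 1 to 5, against 387, 532, 280 and 564 in ad libitum-fed mice 2 to 5. CR mice 4 and 5 were the highest, and the lowest CR mouse exceeded the highest ad libitum-fed mouse. With means of 755 ± 152 (SD, n = 5) and 441 ± 132 (SD, n = 4) in CR and ad libitum-fed mice, the log2 fold change was 0.81 (standard error 0.21, adjusted p = 0.0115, limma). The gene spans 69453683 to 69491792 of chromosome 9 on the plus strand.

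S100a10, the light chain of that complex, did not pass the test, while Anxa2 did. It had 629, 600, 554, 1026 and 1076 normalized counts in CR mice 1 to 5, and 611, 707, 455 and 810 in ad libitum-fed mice 2 to 5. CR mice 1 to 3 lay within the range of the ad libitum-fed mice, and CR mice 4 and 5, which were also the highest for Anxa2, lay above it. The ad libitum-fed mice stood in the same order for both genes. The log2 fold change was 0.24 with a 95% interval from -0.23 to 0.71 (adjusted p = 0.507, limma), so that neither a small decrease nor a 1.5-fold increase lies outside it. The gene lies on chromosome 3, from 93555117 to 93564645 on the plus strand.

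The ratio of Anxa2 to S100a10 in a library does not depend on how the library was scaled. It was 1.0, 1.11, 1.16, 0.938 and 0.810 in CR mice 1 to 5, against 0.633, 0.752, 0.615 and 0.696 in ad libitum-fed mice 2 to 5. All CR mice were above all ad libitum-fed mice. This was not particular to Anxa2. S100a6 over S100a10 ran from 2.04 to 2.93 in CR mice and from 1.16 to 1.64 in ad libitum-fed mice. S100a4 over S100a10 ran from 0.0925 to 0.190 in CR mice and from 0.253 to 0.734 in ad libitum-fed mice. The share of all genes whose ratio to S100a10 separates the diets was not computed. The mean log2 ratio was higher in CR mice by 0.57 (exact permutation test over 126 assignments of the mice, two-sided, p = 0.0159). Transcript ratios say nothing of the make-up of the protein complex, in which S100a10 is known to depend on annexin A2 for its stability.

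**Figure D2:**
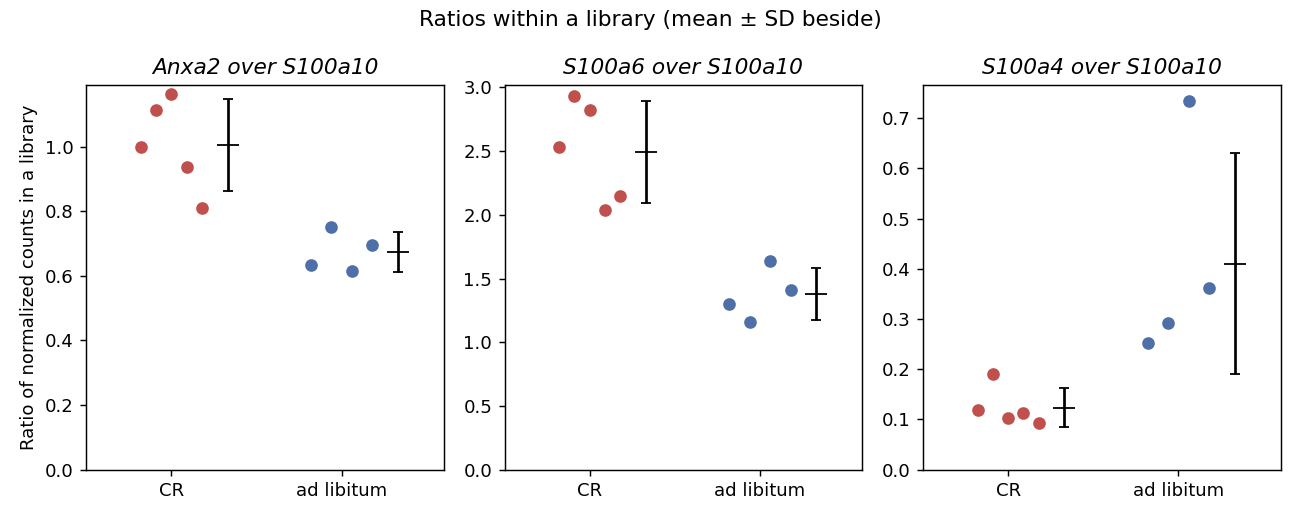
Ratios of normalized counts within a library (y axes, from 0) for Anxa2, S100a6 and S100a4, each over S100a10, in 5 CR mice (red) and 4 ad libitum-fed mice (blue), with the mean ± SD beside the points. Anxa2 over S100a10 runs from 0.810 to 1.16 in CR mice and from 0.615 to 0.752 in ad libitum-fed mice. The ratios of S100a6 and of S100a4 do not overlap between the diets either.

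Anxa5, whose product binds exposed phosphatidylserine and shields it from clotting factors, changed the least of the members that rose. It had 603, 474, 476, 898 and 813 normalized counts in CR mice 1 to 5, against 451, 417, 256 and 428 in ad libitum-fed mice 2 to 5. CR mice 2 and 3 were close above ad libitum mouse 2, while CR mice 4 and 5 were again the highest. The log2 fold change was 0.73 (standard error 0.22, adjusted p = 0.0278, limma), on 199 to 1740 recovered counts. This call was lost when ad libitum mouse 4 was left out (log2 fold change 0.55, adjusted p = 0.0991, limma) and without CR mouse 4 or CR mouse 5 (adjusted p = 0.0774 and 0.0735, limma). The gene covers 36448923 to 36475887 of chromosome 3 on the minus strand.

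Anxa3 had the largest log2 fold change of the members. It had 192, 264, 269, 227 and 189 normalized counts in CR mice 1 to 5, against 53.9, 48.7, 42.5 and 166 in ad libitum-fed mice 2 to 5. Ad libitum mouse 5 stood far above the other 3, which held between 42.5 and 53.9, and still below every CR mouse. The log2 fold change was 1.77 (standard error 0.31, adjusted p = 0.000521, limma), and 1.56 without ad libitum mouse 4. The gene lies on chromosome 5, from 96793385 to 96845968 on the plus strand.

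Anxa4, an annexin best known from epithelia, was the least abundant member. CR mice 1 to 5 had 59.0, 39.6, 41.8, 41.8 and 25.7 normalized counts and ad libitum-fed mice 2 to 5 had 12.6, 11.7, 16.8 and 19.0. CR mouse 1 was the highest and the lowest CR mouse was above all ad libitum-fed mice. The ad libitum values rest on 6 to 14 recovered counts and the CR values on 30 to 81. The log2 fold change was 1.39 (standard error 0.30, adjusted p = 0.00342, limma), on a scale that understates the change of low genes. Anxa4 lies on the minus strand of chromosome 6, from 86736840 to 86793634, and Gm44036, a non-coding gene of the other strand, overlaps its last 1000 bases.

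Anxa6, whose product has a duplicated core and takes part in cholesterol and endosome traffic, was the member that fell. It had 116, 107, 73.5, 113 and 123 normalized counts in CR mice 1 to 5, against 182, 171, 241 and 121 in ad libitum-fed mice 2 to 5. The groups touched, since ad libitum mouse 5 lay just under CR mouse 5, and ad libitum mouse 4 was the highest. The log2 fold change was -0.72 (standard error 0.22, adjusted p = 0.0321, limma). Leaving out ad libitum mouse 2, 3 or 4, or CR mouse 2 or 3, ended the call, with an adjusted p from 0.0521 to 0.112 (limma), while the log2 fold change ran from -0.73 to -0.57, the last without ad libitum mouse 4. The same ad libitum mouse 4 had the highest T cell sum, and ad libitum mouse 5 had the lowest Anxa6 and the lowest T cell sum (1650) of its group. Ad libitum mice 2 and 3 were in the other order, with 182 and 171 for Anxa6 and T cell sums of 2088 and 2239. CR mouse 5 had the highest Anxa6 and the lowest T cell sum (104) of its group. The part of T cells in the Anxa6 result was not tested. The gene spans 54978953 to 55033471 of chromosome 11 on the minus strand.

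Anxa7, or synexin, which was first described in the fusion of chromaffin granules, showed no change that the test could detect. It had 63.8, 28.3, 47.6, 57.8 and 59.2 normalized counts in CR mice 1 to 5, and 50.3, 48.7, 55.4 and 41.4 in ad libitum-fed mice 2 to 5. CR mouse 2 was the lowest and CR mouse 1 the highest of all 9. The log2 fold change was 0.02 with a 95% interval from -0.53 to 0.57 (limma). The gene lies on chromosome 14, from 20455261 to 20480133 on the minus strand.

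The order of the mean levels differed between the diets. Reads were counted at 3' ends, 1 identifier per molecule, so that the normalized counts of different genes are not scaled by gene length. In CR mice the means ran from Anxa1 (846) through S100a10 (777), Anxa2 (755) and Anxa5 (653) to Anxa3 (228), Anxa6 (106), Anxa7 (51.3) and Anxa4 (41.6). In ad libitum-fed mice S100a10 (646) came first, followed by Anxa2 (441), Anxa1 (406) and Anxa5 (388), and then by Anxa6 (179), Anxa3 (77.6), Anxa7 (48.9) and Anxa4 (14.99). In CR mice neighbours among the upper 4 overlapped, as did Anxa7 and Anxa4, while Anxa5, Anxa3, Anxa6 and Anxa7 were apart from each other. In ad libitum-fed mice neighbours overlapped from S100a10 down to Anxa5, and again from Anxa6 through Anxa3 to Anxa7, and Anxa4 was apart. Anxa3 was above Anxa6 in 5 of 5 CR libraries and in 1 of 4 ad libitum libraries.

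The annexins were also summed, and each was expressed as a share of that sum, which does not depend on library scaling. The 7 annexins summed to 2453, 2279, 2761, 3051 and 2866 normalized counts in CR mice 1 to 5, against 1696, 1662, 1049 and 1814 in ad libitum-fed mice 2 to 5. This was 0.290% to 0.398% of all counts in CR libraries and 0.154% to 0.244% in ad libitum libraries. Anxa6 made up 2.66% to 4.73% of the annexin counts in CR libraries and 6.65% to 23.0% in ad libitum libraries, without overlap. The shares of Anxa1 (24.6% to 43.7% in CR, 14.99% to 32.98% in ad libitum), Anxa2 (23.4% to 31.5% and 22.8% to 32.0%) and Anxa5 (17.3% to 29.4% and 23.6% to 26.6%) overlapped. In ad libitum mouse 4 Anxa6 had 23.0% and Anxa1 14.99%, and in CR mouse 3 Anxa1 had 43.7% and Anxa6 2.66%. Without ad libitum mouse 4, the ad libitum shares of Anxa6 ran from 6.65% to 10.7%.

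**Figure D3:**
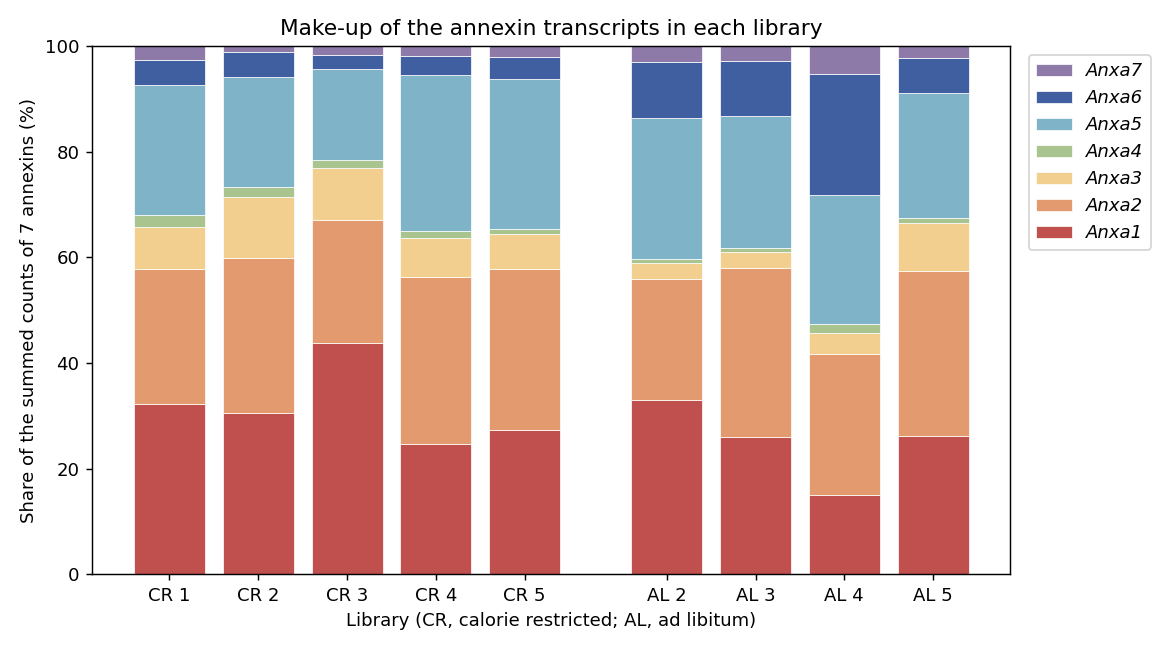
Share of each annexin in the summed normalized counts of 7 annexins (y axis, percent) in 5 CR libraries (left) and 4 ad libitum libraries (right, AL). The band of Anxa6 is between 2.66% and 4.73% in CR libraries and between 6.65% and 23.0% in ad libitum libraries. A share also falls where other annexins rise, and the normalized counts of Anxa6 overlap between the diets.

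The size of the changes depended on the reference to which libraries were scaled. With libraries scaled to the summed fibroblast genes, the median log2 fold change of all tested genes moved by -0.46, and 70 genes were higher and 1047 lower in CR mice (93.7% lower, against 53.4% with the deposited scaling and 43.0% with upper-quartile scaling). In that scaling Anxa3 (log2 fold change 1.29, adjusted p = 0.0023, limma) and Anxa6 (-1.20, adjusted p = 0.00601, limma) still passed the test. Anxa1 (0.70), Anxa4 (0.94), Anxa2 (0.33) and Anxa5 (0.26) stayed above 0 and did not pass (adjusted p from 0.084 to 0.487, limma). Relative to the median of all genes, Anxa1 stood at 1.11 with the deposited scaling and at 1.09 with the fibroblast scaling, and Anxa6 at -0.79 and -0.80. A scaling moves all genes of a library alike, so these values had to stay close and are no test of the changes. The fibroblast sum is a plain total, in which Gsn (mean 9771 in CR mice and 7463 in ad libitum-fed mice) and Dcn (5983 and 3729) were the most abundant. Dcn itself rose with the deposited scaling (log2 fold change 0.70, adjusted p = 0.00473, limma), and Gsn did not pass (0.43). Of 15 tested fibroblast genes 5 rose and none fell with the deposited scaling, and the part of fibroblast content in the annexin results was not tested. Upper-quartile scaling kept the 5 higher members and left Anxa6 at -0.62 (adjusted p = 0.0552, limma).

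**Figure D4:**
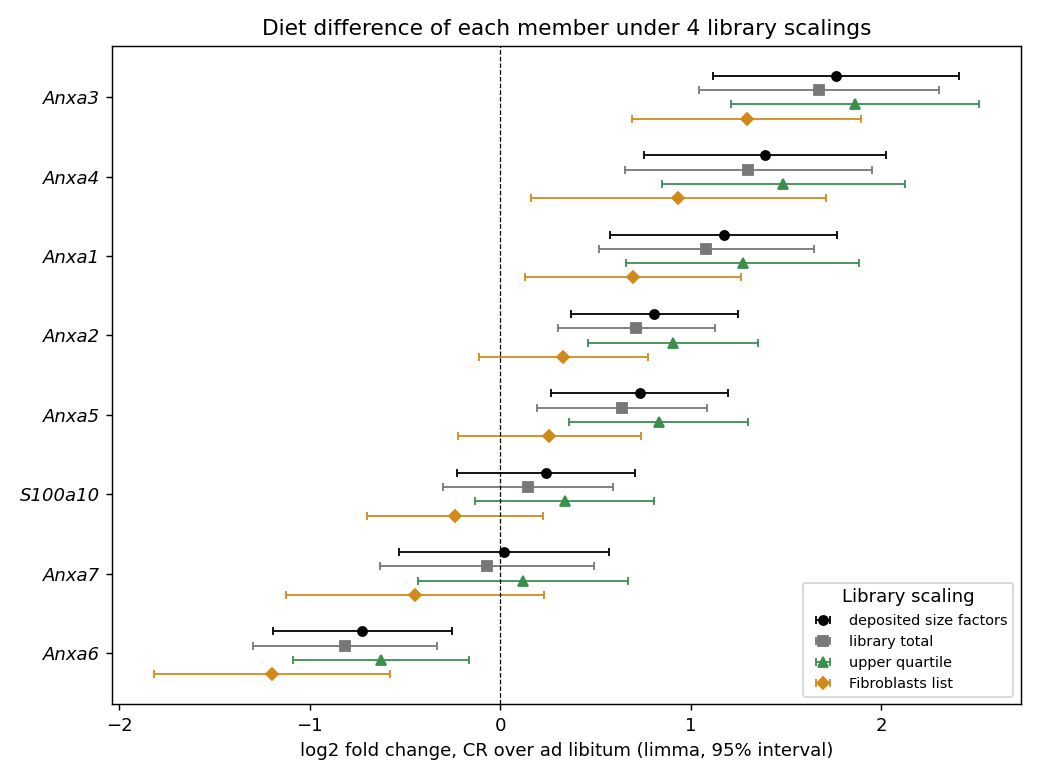
log2 fold change of each member, CR over ad libitum (x axis), with its 95% limma interval, for libraries scaled as deposited, by library total, by upper quartile or to the fibroblast genes. Points of Anxa1 to Anxa5 are above 0 and those of Anxa6 below 0 under all 4 scalings, while Anxa7 and S100a10 change sign with the fibroblast scaling, and Anxa7 also with the library total.

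The sequence just upstream of the start is shown for the members that rose and have an entry in the RefSeq promoter table (GRCm38.p6), since genes that move together are often compared there. Entries were found for 5 of the 8 members, Anxa1, Anxa2, Anxa4, Anxa5 and Anxa7, and for Anxa4 and Anxa7, which have 2 entries, 1 was used. The last 120 bases before the start follow, written 5' to 3' on the strand of the gene, with capitals for the letters TATAAA (searched on the strand of the gene) and TGANTCA, the site of AP-1 (searched on both strands).
Anxa1: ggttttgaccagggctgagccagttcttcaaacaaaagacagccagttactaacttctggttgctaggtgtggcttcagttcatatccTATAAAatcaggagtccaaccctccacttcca
Anxa2: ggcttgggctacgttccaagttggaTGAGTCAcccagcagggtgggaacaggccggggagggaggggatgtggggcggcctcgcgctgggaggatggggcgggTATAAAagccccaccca
Anxa4: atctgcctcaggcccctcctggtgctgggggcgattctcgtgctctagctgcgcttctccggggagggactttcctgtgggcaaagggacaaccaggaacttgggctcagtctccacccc
Anxa5: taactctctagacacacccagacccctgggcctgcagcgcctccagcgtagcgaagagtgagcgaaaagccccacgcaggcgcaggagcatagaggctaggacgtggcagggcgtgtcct

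These stretches are chr19:20390672-20390791 on the minus strand for Anxa1, chr9:69453563-69453682 on the plus strand for Anxa2, chr6:86793585-86793704 on the minus strand for Anxa4, whose entry starts inside the gene span given above, so that part of the bases shown lies within that span, and chr3:36475888-36476007 on the minus strand for Anxa5. Over the 250 bases before the start, TATAAA began at base -32 of Anxa1 and base -17 of Anxa2. AP-1 letters occurred once, at base -95 of Anxa2. Of 32851 promoters in the table, 7.59% held TATAAA and 6.75% TGANTCA in the same stretch. The GC box GGGCGG (both strands), which 32.7% of promoters held, occurred 3 times in Anxa2 and once in Anxa7, and did not overlap the other letters in Anxa2. The half-site of the glucocorticoid receptor, AGAACA (both strands), which 16.1% held, was found in none of the 5. A match is a description of letters only.

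S100 proteins are small calcium-binding proteins, several of which bind annexins. Of 7 tested S100 genes, S100a10 included, 4 rose and 1 fell in CR mice, beside 7.98% higher and 9.14% lower of all tested genes. S100a6 had 1593, 1760, 1565, 2090 and 2307 normalized counts in CR mice 1 to 5, against 794, 820, 746 and 1141 in ad libitum-fed mice 2 to 5. Its log2 fold change was 1.09 (adjusted p = 0.000181, limma). S100a4 had 74.4, 114, 57.0, 116 and 99.5 in CR mice, against 154, 207, 334 and 293 in ad libitum-fed mice, and its log2 fold change was -1.40 (adjusted p = 0.000863, limma). Neither gene overlapped between the diets, and ad libitum mouse 4 had the highest S100a4, as it had the highest Anxa6. S100a16, S100a13 and S100a1 rose too (log2 fold changes 1.04, 0.77 and 1.26), while S100a11, the partner of annexin A1, had 68.7 ± 23.9 (SD, n = 5) and 59.3 ± 20.3 (SD, n = 4) normalized counts in CR and ad libitum-fed mice and did not pass. The median of the list was 0.77, and 0.29 with the fibroblast scaling, where none rose and S100a4 fell. With that scaling 70 of all 6815 tested genes were higher and 1047 lower.

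Genes of the plasminogen system served by annexin A2 and S100a10 rose for the most part. Of 9 tested, 7 rose and 1 fell in CR mice, beside 7.98% higher and 9.14% lower of all tested genes. The median log2 fold change of the list was 0.88, beside 0.07 for all genes. Plaur, the urokinase receptor, had 155 ± 11.3 normalized counts in CR mice (SD, n = 5) and 78.4 ± 9.64 in ad libitum-fed mice (SD, n = 4), and its log2 fold change was 0.98 (adjusted p = 0.00111, limma). Plat, the tissue plasminogen activator that binds annexin A2, had 330 ± 48.4 against 173 ± 58.5, and the inhibitor Serpine2 had 84.2 ± 15.3 against 41.7 ± 10.2. The plasminogen receptor Plgrkt fell, with 32.3 ± 3.69 in CR mice against 63.5 ± 14.9 in ad libitum-fed mice (log2 fold change -0.92, adjusted p = 0.0149, limma). Ctsl, a lysosomal protease and the most abundant of the list, had a log2 fold change of 0.69. With the fibroblast scaling none of the list rose and Plgrkt fell, beside 70 higher and 1047 lower of all 6815 tested genes.

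**Figure D5:**
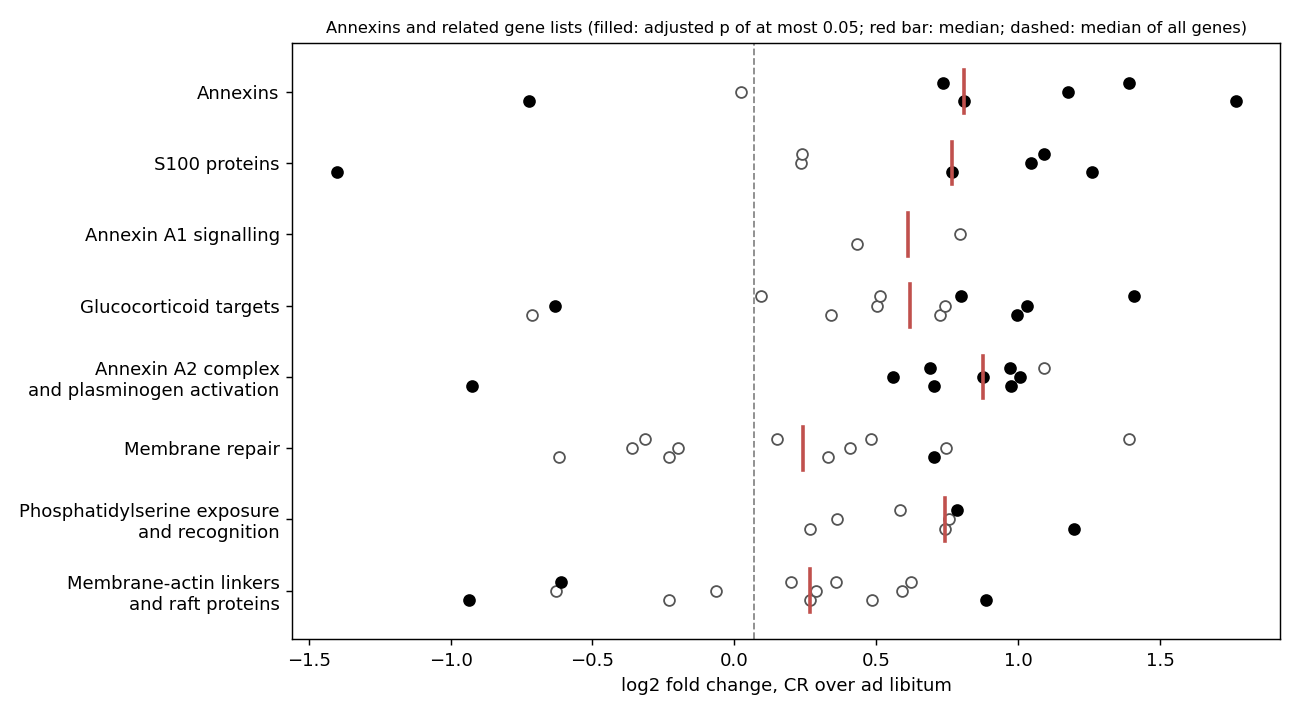
log2 fold change, CR over ad libitum (x axis), of each tested gene in the annexin list and 7 related lists, filled where the adjusted p was at most 0.05. The red bars are list medians, 0.81 for the annexins and 0.24 for membrane repair, and the dashed line is the median of all tested genes, 0.07. With the fibroblast scaling, not drawn, the medians of membrane repair and of the linkers are -0.23 and -0.20. The median of all tested genes is then -0.39, below both.

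Few genes of the annexin A1 pathway reached a level that could be tested. Of 10 listed genes, 2 passed the filter and neither passed the test, Ptgs2, which makes prostaglandin precursors (log2 fold change 0.79), and the channel kinase Trpm7 (0.43). The receptor Fpr2 averaged 1.13 normalized counts in CR mice and 0.225 in ad libitum-fed mice, from 7 counts in CR mouse 2 and 1 count in ad libitum mouse 2, and was at 0 in the other libraries. Among 12 glucocorticoid targets, listed because annexin A1 is one itself, 4 rose and 1 fell, with a median of 0.62. Of all tested genes, 7.98% were higher in CR mice and 9.14% lower. The metallothionein Mt1 had 23241 ± 2640 normalized counts (SD, n = 5) in CR mice and 12188 ± 3823 (SD, n = 4) in ad libitum-fed mice (log2 fold change 0.99, adjusted p = 0.00231, limma). Errfi1, Klf9 and Mt2 rose too, with log2 fold changes of 0.80, 1.41 and 1.03. Tsc22d3, a standard target of the receptor, fell, with 244 ± 28.4 against 383 ± 78.9 (log2 fold change -0.63, adjusted p = 0.0213, limma). With the fibroblast scaling Klf9 rose, Tsc22d3 and the receptor gene Nr3c1 fell, and the median was 0.15. In that scaling 70 of all 6815 tested genes were higher and 1047 lower.

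Further groups were listed for roles they share with annexins. Their counts stand beside 7.98% of all tested genes higher in CR mice and 9.14% lower. For membrane repair and the linkers the number higher was near that share. Of 12 tested genes of membrane repair, Ahnak, a giant scaffold that binds annexin A2 with S100a10, rose (log2 fold change 0.70, adjusted p = 0.0433, limma) and the other 11 did not pass, among them Capn2 (0.75) and Chmp4b (0.48), the most abundant of the list. Of 7 tested genes of phosphatidylserine exposure and recognition, Axl and Ano6 rose. Axl, a receptor for phosphatidylserine-bound Gas6, had 297 ± 51.4 against 130 ± 30.0 normalized counts in CR and ad libitum-fed mice (log2 fold change 1.20, adjusted p = 0.000391, limma), Ano6, a scramblase, had a log2 fold change of 0.78, and Mfge8, the most abundant, had 0.36 and did not pass. Of 13 tested linkers of membrane and actin, the caveolar gene Ptrf rose (0.89) and Ezr and Actb fell (-0.93 and -0.61). Median log2 fold changes were 0.24 for membrane repair, 0.74 for phosphatidylserine and 0.27 for the linkers. With the fibroblast scaling the medians of repair and linkers were -0.23 and -0.20, above the median of all tested genes in that scaling, -0.39. There 2 and 3 of their genes were lower and none higher, beside 1047 lower and 70 higher of all 6815 tested genes. Axl remained higher (0.72, adjusted p = 0.0302, limma).

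The genes closest in profile to Anxa1, Anxa2 and Anxa6 were no members of the family. Likeness was measured as the root mean square difference of log2 values over the 9 libraries, after each gene was centred on its own mean, among 6814 other genes. For Anxa1 the nearest were Hk2 (0.216), Mt2 (0.221) and Lrrc49 (0.221). For Anxa2 they were Nucb2 (0.119), Tgfb3 (0.156) and Csrp2 (0.164), with Anxa5 in place 24 and S100a10 in place 212. For Anxa6 they were Naa10 (0.160), Rbfa (0.178) and Cuta (0.182), and the nearest member was Anxa7 in place 1288. All 9 libraries share the diet difference, so that genes of like direction come out as near.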

How the data were processed

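Normalized expression was available for 9 libraries, 1 per mouse. The authors trimmed reads with cutadapt, mapped them to mm10 with STAR, counted them by HTSeq over 1000 bases at the 3' end of RefSeq genes, collapsed identifiers, corrected for their saturation and divided by DESeq2 size factors. Tool versions were not given in the sources used here. Deposited values are this signal, in normalized counts to 2 decimals. All values above 0 (100%) were whole multiples of a step per library within 0.01, which gave back whole counts.

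Since the deposited signal is normalized, limma 3.58.1 (trend, R 4.3.3) was fitted to log2(value + 1) of genes with at least 10 normalized counts in at least 4 libraries, all 9 libraries in 1 fit, Benjamini-Hochberg over all of them. Gene positions and promoters came from RefSeq on GRCm38.p6, the build mm10 stands for. edgeR 4.0.16 and DESeq2 1.42.0 on recovered counts, other scalings, pseudocounts (0.5 and 10), filters, left-out mice and a replicate block were alternatives. The steps were tested on simulated data. The members and lists were chosen with earlier results of these data known, as were the markers. Named genes were all members, other annexins and, per list, the 2 to 4 with the smallest p and the most abundant, and per marker list the most abundant. Outside that rule S100a1, S100a11, Tsc22d3, Nr3c1, Fpr2, Ctss, Tyrobp, Tagln, Pdgfrb, Krt18 and Cdh1 were named after their values were seen. For Anxa1, Anxa2 and Anxa6 the 3 nearest profiles were taken. No pair of libraries of the same diet was a duplicate (chi-square per degree of freedom at least 3.70). Pairs across the diets were not compared.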

Additional observations from a re-analysis of the deposited data

Results flagged for a closer look

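Anxa1 in CR mouse 3 had 1208 normalized counts, while the other 4 CR mice held 696 to 790, a gap of 0.817 of the range of the group. In the same library Anxa6 was the lowest of all 9 (73.5). Without CR mouse 3 Anxa1 remained higher in CR mice (log2 fold change 1.04, adjusted p = 0.0221, limma).

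Anxa3 in ad libitum mouse 5 had 166 normalized counts (165.5 as deposited), while the other 3 ad libitum-fed mice held 42.5 to 53.9, a gap of 0.908 of the range. Without that mouse the log2 fold change of Anxa3 was 2.20 (adjusted p = 1.45e-06, limma). Of 20 groups of values examined, 2 held such a sample, and chance gives about 1 in 20.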

How the results depend on the processing

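Anxa3 kept its direction and its side of the limit under all 19 alternatives, and Anxa1, Anxa2 and Anxa4 under 18 each, the exception being the fibroblast scaling. Anxa5 kept both under 14 and Anxa6 under 12. With the fibroblast scaling 1 member was higher in place of 5, and 70 genes were higher and 1047 lower in place of 544 and 623. With upper-quartile scaling, and with the replicate block, the number of members lower was 0 in place of 1. Leaving out 1 mouse at a time gave 4 to 5 members higher and 0 to 1 lower, and a log2 ratio of Anxa2 to S100a10 of 0.51 to 0.64. edgeR called 1118 genes and limma 1167 of the 6815. DESeq2 ran on all 11063 genes and called 1404, where limma without the filter called 1339, so that its count differs in tool and in genes tested. Each called the same 6 members.

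Anxa7, which was not called, took the opposite sign by library total (-0.069), by the fibroblast scaling (-0.45), with the replicate block (-0.068) and in the fits without CR mouse 1 (-0.068), 4 (-0.033) or 5 (-0.042) or ad libitum mouse 5 (-0.054), and its values with a mouse left out ran from -0.068 to 0.22. S100a10 was at -0.24 with the fibroblast scaling. The cause was not tested. Replicate numbers 2 to 5 are shared by both diets, but deviations of same-numbered mice correlated at -0.07 to 0.04, so the numbers were not taken as pairs. Number 5 alone had its own number as best partner. With the replicate block 4 members were higher, 392 genes were higher and 511 lower, and the adjusted p of Anxa5 and Anxa6 was 0.0684 and 0.0574 (limma). Paired by number, the log2 ratio of Anxa2 to S100a10 was 0.57 (exact sign-flip permutation, p = 0.125, the smallest that 4 pairs allow). Depth was lower in ad libitum libraries, which limits Anxa4, with 6 to 14 counts there.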

Other observations

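Anxa9, an annexin outside the listed members, lay below the filter on low values. It had 2.90, 4.85, 2.35, 0 and 2.57 normalized counts in CR mice 1 to 5, at most 6 recovered counts, and was at 0 in all 4 ad libitum libraries, where a count of 0 allows up to 2.69 to 5.85. Every CR value lies under the highest of those limits, while those of CR mice 1 and 2 lie above the lowest. The mean was higher in CR mice by 2.53 (exact permutation test over 126 assignments of the mice, two-sided, p = 0.0476). Depth was lower in the ad libitum libraries, so that this difference cannot be told apart from one of depth. The 3' end of Anxa9 overlaps Mindy1, a coding gene of the opposite strand.

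The metallothionein Mt2, the second nearest profile to Anxa1, had 16285, 14907, 18092, 14680 and 20950 normalized counts in CR mice 1 to 5, against 11299, 10025, 3796 and 10732 in ad libitum-fed mice 2 to 5. Like Anxa1 it was lowest in ad libitum mouse 4. Hexokinase 2 (Hk2), the nearest, had 152, 126, 175, 96.0 and 106 in CR mice, against 77.2, 77.9, 25.8 and 62.1 in ad libitum-fed mice. Its highest value was in CR mouse 3, as for Anxa1.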
